A study of Arabidopsis thaliana with 10 samples.

Results

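Among the transcripts that rose in Arabidopsis thaliana shoots after dexamethasone (DEX) was given to plants with an inducible SHORT-ROOT protein, 42 probe sets were high at 6 hr and at no other time sampled. They were chosen from 22746 probe sets on Affymetrix ATH1 arrays, with values on the scale log2(signal + 16) and each time set against 0 hr. A member had a mean of at least 6 over the 10 arrays, a 6 hr difference of at least 0.8, a 3 hr difference between -0.3 and 0.3, and differences below 0.4 at both 12 and 24 hr. Both of its 6 hr arrays also had to lie above both 0 hr arrays. Of the 42, 24 probe sets each had 1 named gene, which made 24 different genes, and 18 were not listed in the probe table and carry no gene name here. All times were used in the choice, so the levels of the members are given as a description and none of them is tested.

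All plants were shr-2 mutants that carried pSHR:SHR-GR, the SHORT-ROOT (SHR) protein joined to the glucocorticoid receptor and driven by the SHR promoter. The arrays hold whole shoots, 2 biological replicates for each of 5 times: untreated plants (0 hr) and plants exposed to 10 µM DEX for 3, 6, 12 or 24 hr. Treatment started at 10 days after germination (DAG), or at 9 DAG for the 24 hr samples. The growth temperature was 22 °C and days had 16 h light and 8 h dark. No mock-treated plants of the later times and no plants without the transgene were among the samples, so DEX, SHR activity, time of day and handling cannot be told apart in any value below. The number of plants per sample is not given in the labels, and the spread between the 2 arrays of a time is the only measure of error.

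The glucocorticoid receptor part keeps the fusion protein in the cytoplasm until DEX binds it, and the fusion then enters the nucleus. SHR is a GRAS-family transcription factor known for patterning the root ground tissue, and it also acts in the shoot in the bundle sheath and in leaf growth. Transcripts that rise and fall again within hours are typical of plant stress and energy signalling, where WRKY and bZIP transcription factors, ubiquitin ligases and protein kinases are switched on briefly. The SnRK1 kinase, which conserves energy when sugar runs low, and immune signalling at the cell surface are among these systems.

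Median signals ran from 181.5 to 191.5 over the 10 arrays, and the 2 replicates of a time had correlations of 0.9858 to 0.9909 across probe sets. The 3′ over 5′ signal ratio of the GAPDH control was 1.92 and 1.96 at 6 hr, inside the range of 1.81 to 2.5 on the other arrays, whereas the actin ratio was 28.6 on 6 hr replicate 1, above the 12.7 to 25.1 of the other times, and 18.7 on 6 hr replicate 2. The part of RNA quality in the results was not tested. The labelled tissue was checked with 2 photosynthesis markers, RCA (18800 to 25500), the activase of Rubisco, and LHCB4.3 (1860 to 3810), a light-harvesting protein, which were bright on every array. The root-hair expansins EXPA7 (1.83 to 21.5) and EXPA18 (10 to 85.2) were dim, while PYK10 (8260 to 10900), a glucosidase of roots that is also found in seedling shoots, was bright. At 6 hr RCA lay 0.35 below and LHCB4.3 0.77 below 0 hr on the log2 scale (-0.35 and -0.77), EXPA18 lay at -1.52 and PYK10 at 0.07. The shoot meristem marker CLV3 (2.38 to 17.5) was dim on every array. A named probe set was found for 2 of 8 shoot markers, 3 of 7 root markers and 1 of 3 shoot meristem markers. The markers set for flowers, guard cells and phloem had no named probe set, and SHR itself is not analysed here. In whole shoots, fewer cells of a type and less RNA per cell cannot be told apart.

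The shape of the whole set, a single step up and down, was largely fixed by the rule, so the medians below only describe it. Set against the mean of the 0 hr arrays, the median member lay at 0.1 on both 3 hr arrays. It then lay at 1.01 and 1.05 on the 6 hr arrays, at 0.27 and 0.25 on those of 12 hr, and at 0.09 and 0.07 on those of 24 hr. The 2 arrays of each time thus gave nearly the same median. All 42 members had both 6 hr arrays above all 8 other arrays, as 6.47% of all 22746 probe sets did. The rule asked for it only against 0 hr, but its limits at the other times nearly fix it, so nothing is read from the count. The smallest such gap was 0.28 and the median gap 0.58 on the log2 scale. The 6 hr replicates themselves differed by at most 0.5 (in a probe set without a gene name), and 24 members were higher in replicate 1.

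**Figure D1:**
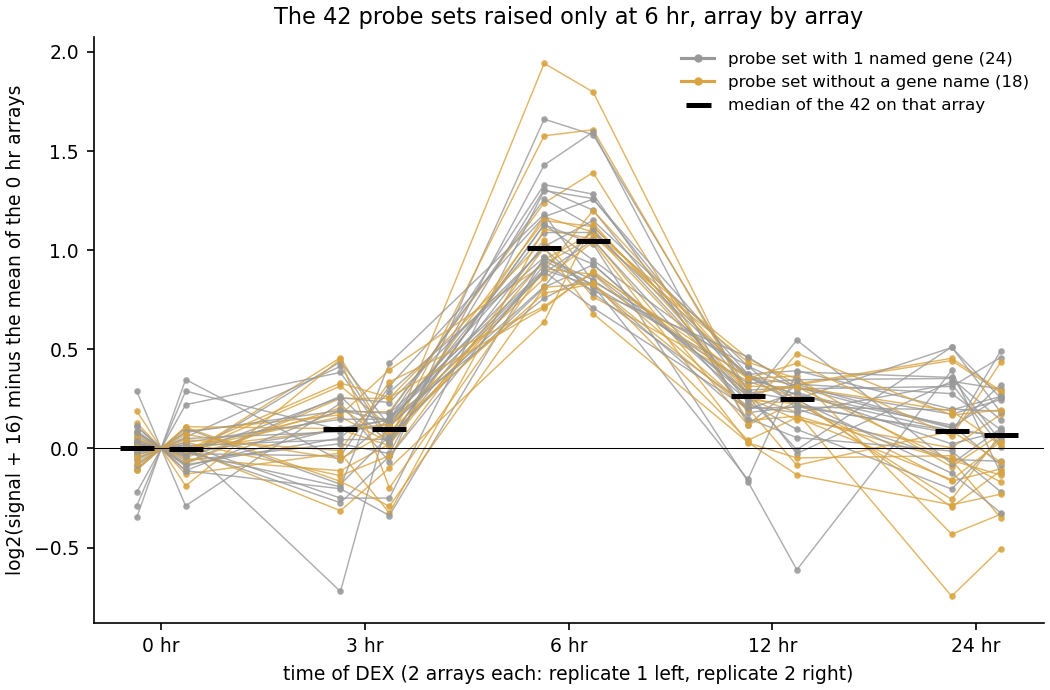
Each line is 1 of the 42 probe sets over the 10 arrays; the vertical axis is log2(signal + 16) minus the mean of the 0 hr arrays, the horizontal axis is the time of DEX with both replicates side by side, and black bars are the median of the 42 on each array. The medians stand at 1.01 and 1.05 on the 6 hr arrays and between 0.07 and 0.27 on the arrays of 3, 12 and 24 hr.

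The 6 hr differences ran from 0.8 to 1.87 with a median of 0.99, beside a median of -0.05 over all 22746 probe sets, and 20 members reached 1. At 12 hr a median of 26.4% of the 6 hr difference was left, with 39 of 42 members still above 0 hr and a median of 0.28. At 24 hr 7.37% was left, with 27 members above and 15 below 0 hr. The later upper limits belong to the rule, but the rule set no lower limit, and 2 members lay more than 0.3 below 0 hr at 24 hr. The larger of these was the probe set 266693_at, whose signals were 214 and 200 at 0 hr, 649 and 663 at 6 hr, and 117 and 141 at 24 hr. Its 24 hr arrays thus lay below all its other arrays.

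Of the rises of at least 0.8 at 6 hr, 10.2% met the whole rule, a share set by where its limits lie. The limits at 12 and 24 hr are absolute, so a large rise that mostly fell back can miss them. With the same brightness limit, 411 probe sets were up by at least 0.8 at 6 hr. Of these 219 were already more than 0.3 up at 3 hr, 28 were more than 0.3 down at 3 hr, and 164 were flat at 3 hr. Among the 164, 115 were still up by at least 0.4 at 12 hr and 86 at 24 hr, with 79 counted at both times, which left the 42 members (25.6%). The 122 flat at 3 hr that were not members had a median of 1.18 and a highest value of 2.84 at 6 hr, and medians of 0.69 at 12 hr and 0.58 at 24 hr. The highest 6 hr value among the members was 1.87, and as the rule keeps 12 and 24 hr low, nothing is read from that difference. A wider count asked for less than 0.4 in that direction at every other time, 3 hr included, with no lower limit there. By it 57 probe sets were raised and 23 lowered at 6 hr alone. The same counts were 42 and 62 at 3 hr, 3 and 1 at 12 hr, and 1 and 4 at 24 hr.

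**Figure D2:**
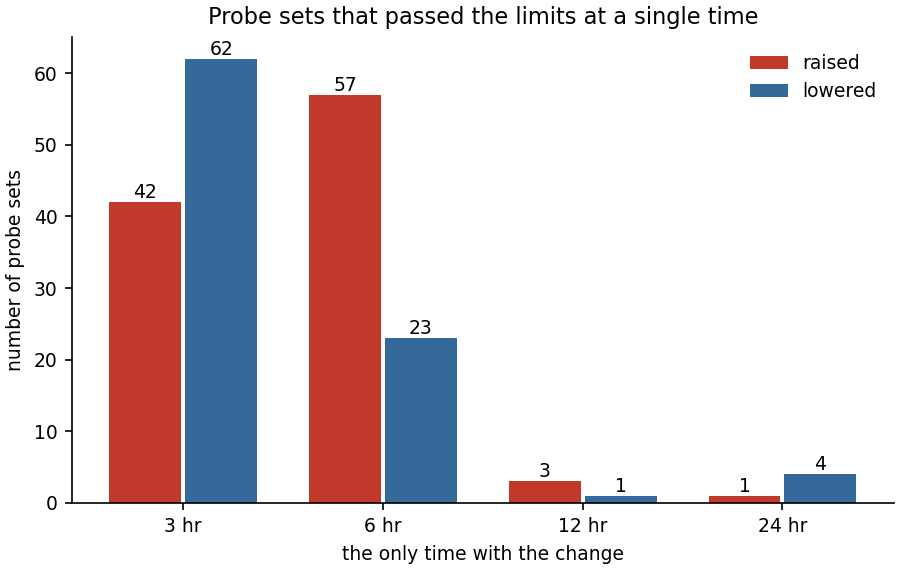
Bars give the number of probe sets, on the vertical axis, that were at least 0.8 above (red) or below (blue) 0 hr at only the time on the horizontal axis, with every other time less than 0.4 away in that direction. At 6 hr 57 were raised and 23 lowered, at 3 hr 42 and 62, and few passed at 12 or 24 hr.

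**Figure D3:**
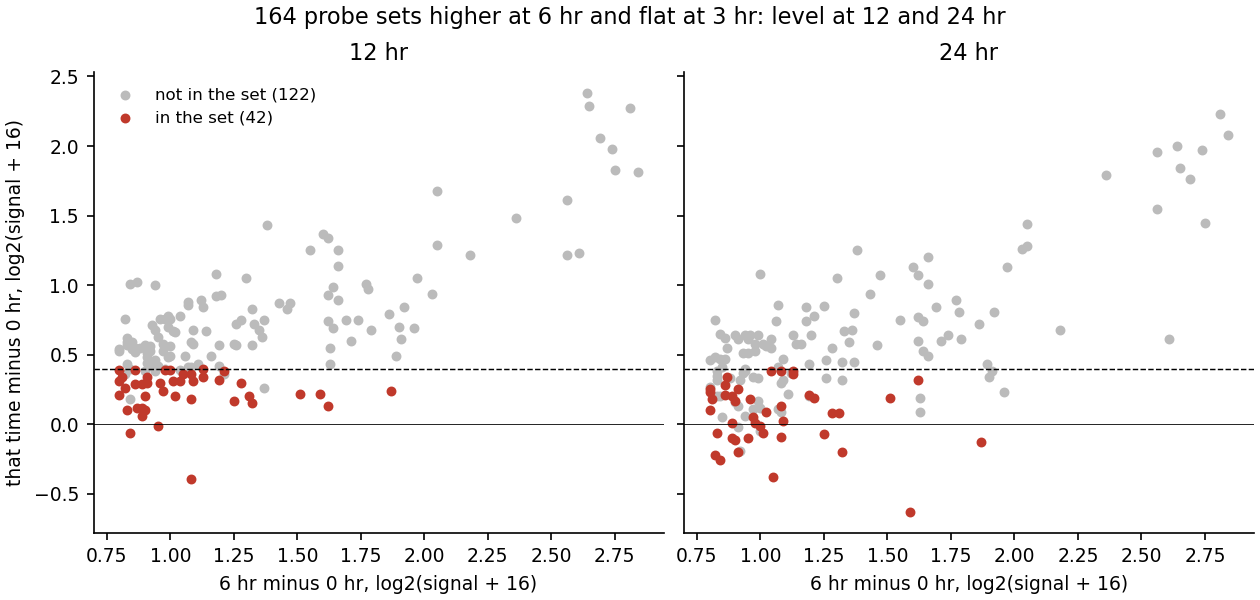
Each point is 1 of 164 probe sets up at 6 hr and flat at 3 hr, with its 6 hr difference from 0 hr on the horizontal axis and its difference at 12 hr (left) or 24 hr (right) on the vertical axis, both as log2(signal + 16); the dashed line is the limit of 0.4. The 42 members (red) lie below the line at both times and reach 1.87 at 6 hr, while the 122 others (grey) reach 2.84.

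The limits cut through a continuous range. At the 6 hr limit of 0.8, 2365 probe sets missed on that count alone, and AT3G60290 lay just outside at 0.8 to 2 decimals, as the nearest member did just inside. At 12 hr 36 missed on that limit alone, the nearest named one being AT1G35710 at 0.4, a leucine-rich repeat receptor kinase gene with a 6 hr difference of 0.84. The 24 hr limit alone kept out 7, among them AT1G66180 at 0.48, while AT1G09500 at 0.38 was the member closest to it. At the 3 hr limits 43 were kept out for being too high, with AT5G56100 at 0.32, and 8 for being too low, with AT2G39400 at -0.38, against AT2G41640 at -0.27 just inside. Brightness alone kept out 13, the nearest being AT2G15880 at a mean of 5.75, against the member AT3G55840 at 6.14.

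Of the transcription factor genes in the set, WRKY53 had the largest 6 hr difference. WRKY53 encodes a WRKY factor that promotes leaf senescence and takes part in basal defence. Its signals were 104 and 94.4 at 0 hr, 101 and 97.1 at 3 hr, 294 and 332 at 6 hr, 109 and 128 at 12 hr, and 108 and 122 at 24 hr. The mean went from 99.2 ± 6.75 to 313 ± 27 (SD, n = 2 arrays each), a 3.16-fold level and a log2 difference of 1.51, and the 3 hr arrays lay between the 0 hr arrays.

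BZIP53 was the brightest named member and one of the smallest in its change. It encodes a group S1 bZIP factor that pairs with group C bZIP factors and activates amino acid metabolism genes under energy deprivation and in seeds. Its signals were 1580 and 1650 at 0 hr, 1790 on both 3 hr arrays, 3010 and 2650 at 6 hr, 1860 and 1870 at 12 hr, and 1850 and 1940 at 24 hr. The 6 hr mean of 2830 ± 254 was 1.76-fold that of 0 hr at 1610 ± 47.7 (SD, n = 2 each), and every array of the other DEX times stayed somewhat above the 0 hr arrays. BZIP61, another bZIP factor, had 190 and 221 at 0 hr, 179 and 215 at 3 hr, 372 and 404 at 6 hr, 249 and 204 at 12 hr, and 299 and 235 at 24 hr. Its log2 difference was 0.87 at 6 hr and 0.34 at 24 hr, where replicate 1 was the highest array outside 6 hr.

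Their relatives on the array, which were picked after these members were known and are therefore not tested, had other levels. BZIP44, of the same S1 group, stood at -0.46 at 6 hr and -0.4 at 12 hr, from a mean signal of 1330 at 0 hr. BZIP34, the closest relative of BZIP61, had mean signals of 48.7 at 0 hr, 8.41 at 3 hr and 53.5 at 6 hr. Its 6 hr arrays, 86.1 and 20.9, lay on either side of those of 0 hr, 47.6 and 49.7, so its 6 hr level is not told apart from 0 hr. The other 7 S1 and C factors looked for, BZIP1 among them, had no named probe set.

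The next 4 members, put together here by their known roles after they were seen, act in or near energy and lipid metabolism. AKINBETA1 encodes a regulatory beta subunit of the SnRK1 kinase. Its signals were 354 and 341 at 0 hr, 338 and 436 at 3 hr, 801 and 853 at 6 hr, 455 and 461 at 12 hr, and 401 and 398 at 24 hr. The 6 hr mean of 827 ± 36.8 was 2.38-fold the 348 ± 8.74 of 0 hr (SD, n = 2 each), and the difference of 0.38 left at 12 hr was close to the limit of the rule. The other beta subunits stood still by comparison, with AKINBETA2 at -0.13 and AKINBETA3 at -0.08 at 6 hr, from mean signals of 595 and 666 at 0 hr. KIN10, KIN11, SNF4 and KING1, the catalytic and gamma-type subunits, had no named probe set.

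SDP1, SUGAR-DEPENDENT1, encodes a triacylglycerol lipase that starts oil breakdown in seedlings. It had 372 and 330 at 0 hr, 364 and 430 at 3 hr, 699 and 644 at 6 hr, 444 and 450 at 12 hr, and 452 and 389 at 24 hr, which is 1.91-fold at 6 hr. Its relative SDP1L was dim, at a mean of 10 at 0 hr and 3.77 at 6 hr.

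AT1G02660 encodes a lipase known as PLIP2, one of the plastid lipases that release fatty acids used for jasmonate synthesis. Its signals were 71.4 and 73.6 at 0 hr, 58.4 on both 3 hr arrays, 202 and 196 at 6 hr, 92.5 and 93.6 at 12 hr, and 79 and 76.1 at 24 hr. Replicates were close at every time, and the dip to -0.25 at 3 hr was followed by 1.28 at 6 hr on the log2 scale. PLIP3 stood at -0.33 at 6 hr, from a mean of 110 to one of 83.5.

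AT3G55840 encodes an Hs1pro-1 domain protein (HSPRO1 in the literature), of a family that binds SnRK1 and takes part in basal resistance. It was the dimmest member, with 46 and 47.3 at 0 hr, 48.6 and 48.7 at 3 hr, 121 and 112 at 6 hr, 39.8 and 25 at 12 hr, and 66.3 and 41.5 at 24 hr. Its 12 hr difference of -0.39 was the lowest of all 42, with both 12 hr arrays below both 0 hr arrays. The 12 hr mean of 32.4 was near background (under 44.8), which limits the precision of this difference.

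Next come 4 members that are immune genes or carry domains found in immune proteins, again put together after they were seen. PUB23 encodes a U-box ubiquitin ligase that, with PUB22 and PUB24, dampens the response to microbial patterns. Its signals were 55.3 and 90.5 at 0 hr, 77 and 80.4 at 3 hr, 152 and 138 at 6 hr, 62.2 and 97.9 at 12 hr, and 95.7 and 73.4 at 24 hr. The 0 hr arrays spread widely (72.9 ± 24.9, SD, n = 2), and the 6 hr mean of 145 ± 9.93 was 2-fold that of 0 hr. That both 6 hr arrays lay above both 0 hr arrays was a condition of the rule, so nothing is read from it.

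AT1G66090 and AT1G61100 encode proteins with the TIR domain of plant immune receptors. AT1G66090 had 40.2 and 44.8 at 0 hr, 61.9 and 44.3 at 3 hr, 112 and 96.9 at 6 hr, 59.9 and 53.5 at 12 hr, and 67.2 and 53.8 at 24 hr, 2.46-fold at 6 hr from a level near background. AT1G61100 had 346 and 294 at 0 hr, 275 and 249 at 3 hr, 638 and 577 at 6 hr, 356 and 332 at 12 hr, and 316 and 272 at 24 hr. Both 3 hr arrays lay below both 0 hr arrays, at -0.27, and the 6 hr level was 1.9-fold. AT2G24600, an ankyrin repeat protein gene, had 135 and 127 at 0 hr, 183 and 143 at 3 hr, 243 and 300 at 6 hr, 161 and 168 at 12 hr, and 162 and 141 at 24 hr.

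The other genes of these pathways were taken from lists of immune genes and gene families and were tested in a fit across all probe sets (limma on all 10 arrays, Benjamini-Hochberg adjustment over 22746 probe sets, threshold 0.05). Over all probe sets 5.17% were called higher and 4.19% lower at 6 hr against 0 hr. Of 38 genes listed for pattern-triggered immunity 7 had a named probe set, and 2 of these, WRKY53 and PUB23, were members. Of the other 5, 2 rose at 6 hr and 3 did not pass, with a median difference of 0.56 beside -0.05 over all probe sets. Leaving out replicate 2 of 0 hr left 0 of them called, and leaving out replicate 1 of 0 hr or either 6 hr array left 1. The ones that rose were WRKY22 and PUB22, and the 3 others were PUB24, the immune receptor gene EFR and the receptor-associated kinase gene BIK1. Against 3 hr, 3 of the 5 were higher at 6 hr, where 5.16% of all probe sets were called higher. They were WRKY22, PUB24 and BIK1 (0.45, SE 0.1, adjusted p = 0.0133 by limma). For BIK1 the mean signals were 697 at 0 hr, 567 at 3 hr and 782 at 6 hr. Against 0 hr it passed neither at 3 hr (-0.29, adjusted p = 0.0937 by limma) nor at 6 hr (0.16, adjusted p = 0.358). The call of BIK1 was lost without 3 hr replicate 2 (adjusted p = 0.0947), without 6 hr replicate 1 (0.118) and without an intensity trend (0.0698).

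WRKY22, a WRKY factor downstream of immune receptors, had signals of 142 and 125 at 0 hr, 103 and 85 at 3 hr, 242 and 247 at 6 hr, 166 and 179 at 12 hr, and 178 and 168 at 24 hr. It rose by 0.8 over 0 hr (SE 0.15, adjusted p = 0.00608 by limma) and by 1.25 over 3 hr (SE 0.15, adjusted p = 0.000361), where 5.16% of all probe sets were called higher. From 6 to 12 hr it stood at -0.46 (adjusted p = 0.163), so that a decline did not pass. Without 0 hr replicate 2 its adjusted p at 6 hr was 0.0521.

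PUB22, the closest relative of PUB23, rose from 20.7 and 19.9 at 0 hr, near background, to 55.5 and 52.8 at 6 hr (0.95, SE 0.24, adjusted p = 0.0303 by limma). It had risen already at 3 hr, to 51.2 and 66.2 (1.03, SE 0.24, adjusted p = 0.0225), and the 6 hr and 3 hr levels were not told apart (-0.08, adjusted p = 0.887). The 3 hr call was lost without either 0 hr array or 3 hr replicate 2, with adjusted p from 0.0897 to 0.129. Its call at 6 hr was lost without either 0 hr or either 6 hr array, with adjusted p from 0.106 to 0.154. PUB24 had 80 and 80 at 0 hr and 119 and 132 at 6 hr (0.56, SE 0.18), which did not pass (adjusted p = 0.079 by limma), but it was higher at 6 hr than at 3 hr (0.65, SE 0.18, adjusted p = 0.0456). That call was lost when any 1 of the 10 arrays was left out, with adjusted p from 0.0543 to 0.208, and with a replicate block (adjusted p = 0.0633).

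In the families, 1 of 5 measured WRKY genes outside the set rose at 6 hr, which was WRKY22 again, and 4 did not pass. WRKY6, which acts in senescence and phosphate supply, had 0.6 (SE 0.17, adjusted p = 0.055 by limma), and was higher at 6 hr than at 3 hr (0.84, adjusted p = 0.0123). The latter call was lost without 3 hr replicate 1 or either 6 hr array, with adjusted p from 0.0568 to 0.0954. Of 14 RING and U-box ligase genes outside the set 2 rose, PUB22 and BRH1, and 12 did not pass, with a median of 0.11. BRH1, a brassinosteroid-responsive RING gene, had 1120 on both 0 hr arrays, 944 and 1040 at 3 hr, 1430 and 1440 at 6 hr, and 1410 and 1420 at 12 hr (0.35, SE 0.08, adjusted p = 0.0176 by limma). Its call was lost without any 1 of the 0 hr or 6 hr arrays, with adjusted p from 0.0842 to 0.0882, and without an intensity trend (adjusted p = 0.0915). At 12 hr, where 1.27% of all probe sets were called higher, and at 24 hr, with 0.717%, neither WRKY22, PUB22 nor BRH1 was called. A missing call does not by itself show a return to the 0 hr level. Their differences from 0 hr at 12 and 24 hr were 0.34 and 0.34 in WRKY22, 0.46 and 0.81 in PUB22, and 0.34 and -0.04 in BRH1.

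The members also held 2 neighbouring genes for enzymes that modify small molecules. UGT85A2 and UGT85A5 encode UDP-glycosyltransferases, which attach sugars to small metabolites, and lie next to each other on chromosome 1. UGT85A2 had 385 and 370 at 0 hr, 454 and 446 at 3 hr, 776 and 661 at 6 hr, 440 and 430 at 12 hr, and 477 and 380 at 24 hr, 1.9-fold at 6 hr. UGT85A5 had 158 and 153 at 0 hr, 134 and 215 at 3 hr, 373 and 291 at 6 hr, 213 and 181 at 12 hr, and 149 and 148 at 24 hr, 2.13-fold. In both genes 6 hr replicate 1 was the higher one. No other pair of named members lay within 5 genes of each other. Whether probes of these close relatives pick up each other's transcripts was not tested.

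The relatives on the array differed among themselves. UGT85A4 had 218 and 196 at 0 hr, 185 and 180 at 3 hr, 349 and 333 at 6 hr, and 303 and 272 at 12 hr (0.68 at 6 hr, SE 0.12, adjusted p = 0.0048 by limma). UGT85A3, with 37.3 and 18.4 at 0 hr and 24.2 and 32.6 at 6 hr, and UGT85A7, with 32.3 and 33.6 at 0 hr and 29.4 and 8.75 at 6 hr, were dim and did not pass (0.04 and -0.55, adjusted p = 0.955 and 0.336 by limma). UGT85A1 had no named probe set.

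Over all probe sets 5.17% were called higher at 6 hr. Of 49 measured UGT genes outside the set 8 rose at 6 hr and 41 did not pass, with a median of 0.05 beside -0.05 over all probe sets. This count was 4 without 0 hr replicate 2, 6 hr replicate 1 or 6 hr replicate 2, and 5 without 0 hr replicate 1. At 3 hr 8 were higher and 2 lower, where 3.91% of all probe sets were called higher and 4.31% lower. At 6 hr against 3 hr, where 5.16% of all probe sets were called higher, 3 of the 49 were higher and 3 lower. The median of this difference was 0.0. The 3 higher ones were among the 8 called at 6 hr. Of these 3, 2 fell again from 6 to 12 hr, a step at which 1.68% of all probe sets were called lower.

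These 2 were UGT73B1 and UGT88A1, which are not members. UGT88A1 had 1180 and 1320 at 0 hr, 1370 and 1290 at 3 hr, 2200 and 2110 at 6 hr, 1270 and 1500 at 12 hr, and 1140 and 1110 at 24 hr. It was 0.78 above 0 hr (SE 0.09, adjusted p = 0.000284 by limma), 0.69 above 3 hr (adjusted p = 0.000761) and fell by 0.64 from 6 to 12 hr (SE 0.09, adjusted p = 0.00373). It thus had the shape of the set and missed it by its 6 hr difference. The fall to 12 hr was lost when replicate 1 of 12 hr (adjusted p = 0.0541) or replicate 1 of 6 hr was left out (adjusted p = 0.0501), and without an intensity trend in the fit (adjusted p = 0.0654).

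UGT73B1, whose product glycosylates flavonoids, had 197 and 133 at 0 hr, 236 and 231 at 3 hr, 465 and 533 at 6 hr, 291 and 272 at 12 hr, and 231 and 232 at 24 hr. It was 1.53 above 0 hr (SE 0.16, adjusted p = 0.000121 by limma) and 1.05 above 3 hr (adjusted p = 0.00188), and fell by 0.79 to 12 hr (adjusted p = 0.0259). The fall did not pass without either array of 6 or 12 hr, with adjusted p from 0.103 to 0.222, nor without an intensity trend (adjusted p = 0.112). At 12 hr it was 0.74 above 0 hr (adjusted p = 0.045), a call that was kept among the repeats without 1 array only when 0 hr replicate 1 was left out, with adjusted p from 0.0586 to 0.311 in the others. That call was also lost with a replicate block (adjusted p = 0.0584). UGT76E12 rose from 29.8 and 32 at 0 hr, near background, to 91.5 and 109 at 6 hr (1.3, SE 0.3, adjusted p = 0.0194 by limma), a call lost without any 1 of these 4 arrays, with adjusted p from 0.0768 to 0.121. It was called higher already at 3 hr, at 65 and 111 (1.11, SE 0.3, adjusted p = 0.0434), and the 3 and 6 hr levels were not told apart (0.19, adjusted p = 0.77). The 3 hr call was lost without either 0 hr array, 3 hr replicate 2 or either 6 hr array, with adjusted p from 0.0645 to 0.246, and with a replicate block (adjusted p = 0.0603).

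**Figure D4:**
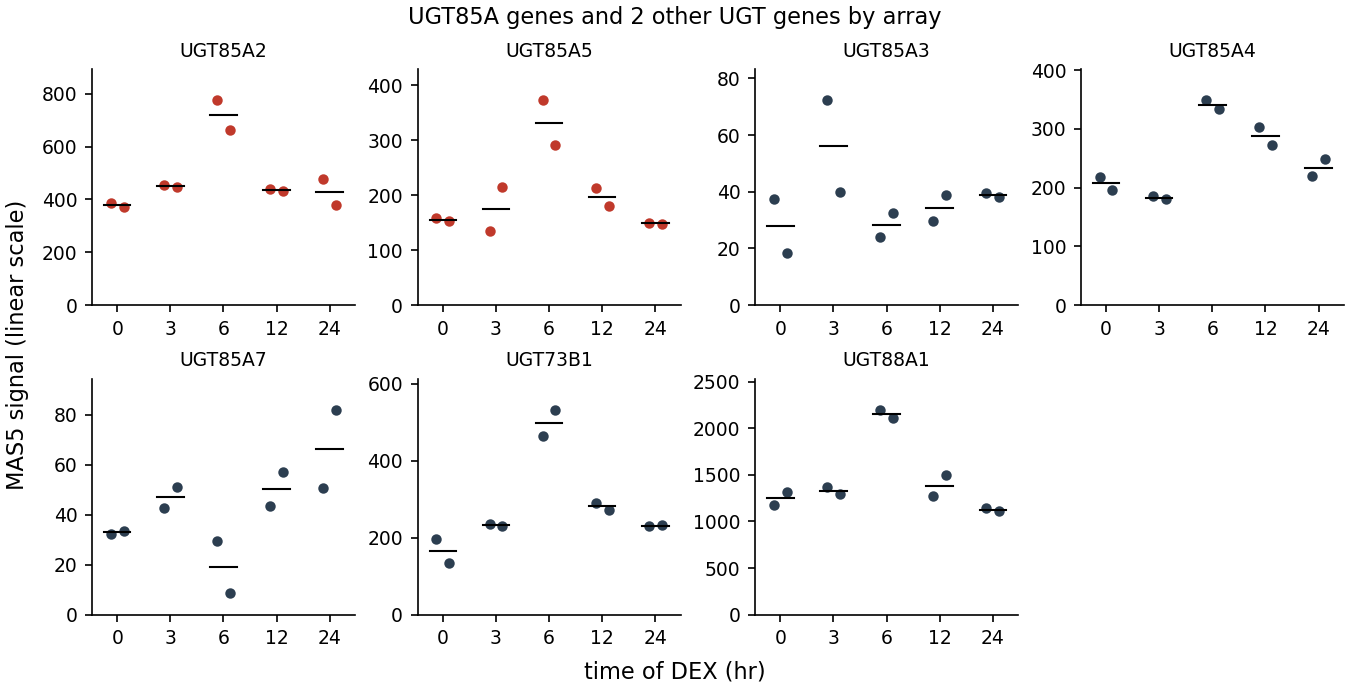
Points are the MAS5 signal on each array (vertical axis, linear from 0) by time of DEX (horizontal axis, hr) and bars the mean of the 2 arrays, for the members UGT85A2 and UGT85A5 (red) and 5 UGT genes outside the set (dark). UGT88A1 has the same shape as the members, UGT85A4 has 303 and 272 at 12 hr, and UGT85A3 and UGT85A7 are dim. The 12 hr level of UGT85A4 was not told apart from 0 hr (0.45, adjusted p = 0.118 by limma) or from 6 hr (-0.23, adjusted p = 0.441).

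Other members encode further enzymes. AT2G32030, which encodes an acetyltransferase of the GNAT family, had the largest 6 hr difference of the named members, 1.62. Its signals were 49.7 and 28 at 0 hr, 47 and 35.3 at 3 hr, 154 and 145 at 6 hr, 49.7 and 36.8 at 12 hr, and 52 and 50.2 at 24 hr. The 0 hr mean of 38.9 ± 15.3 (SD, n = 2) is under 44.8, the 30th percentile of all probe sets, below which a signal is called near background here, so the 3.85-fold ratio depends on a dim start. The same holds for AT1G66090, and no other named member started so low.

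AT2G41640, a glycosyltransferase gene of family 61, had 91.4 and 94.2 at 0 hr, 50 and 107 at 3 hr, 244 and 220 at 6 hr, 124 and 115 at 12 hr, and 99.8 and 120 at 24 hr. Its flat 3 hr mean hid 2 arrays far apart, of which replicate 1 lay well below 0 hr. AT1G09500, a gene of the alcohol dehydrogenase-like family, had 61.2 and 109 at 0 hr, 78.2 and 93.1 at 3 hr, 183 and 202 at 6 hr, 115 and 105 at 12 hr, and 106 and 119 at 24 hr. AT5G18600, a glutaredoxin gene, had 320 and 360 at 0 hr, 390 and 376 at 3 hr, 585 and 639 at 6 hr, 417 and 405 at 12 hr, and 310 and 268 at 24 hr, with both 24 hr arrays below both 0 hr arrays (-0.22).

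**Figure D5:**
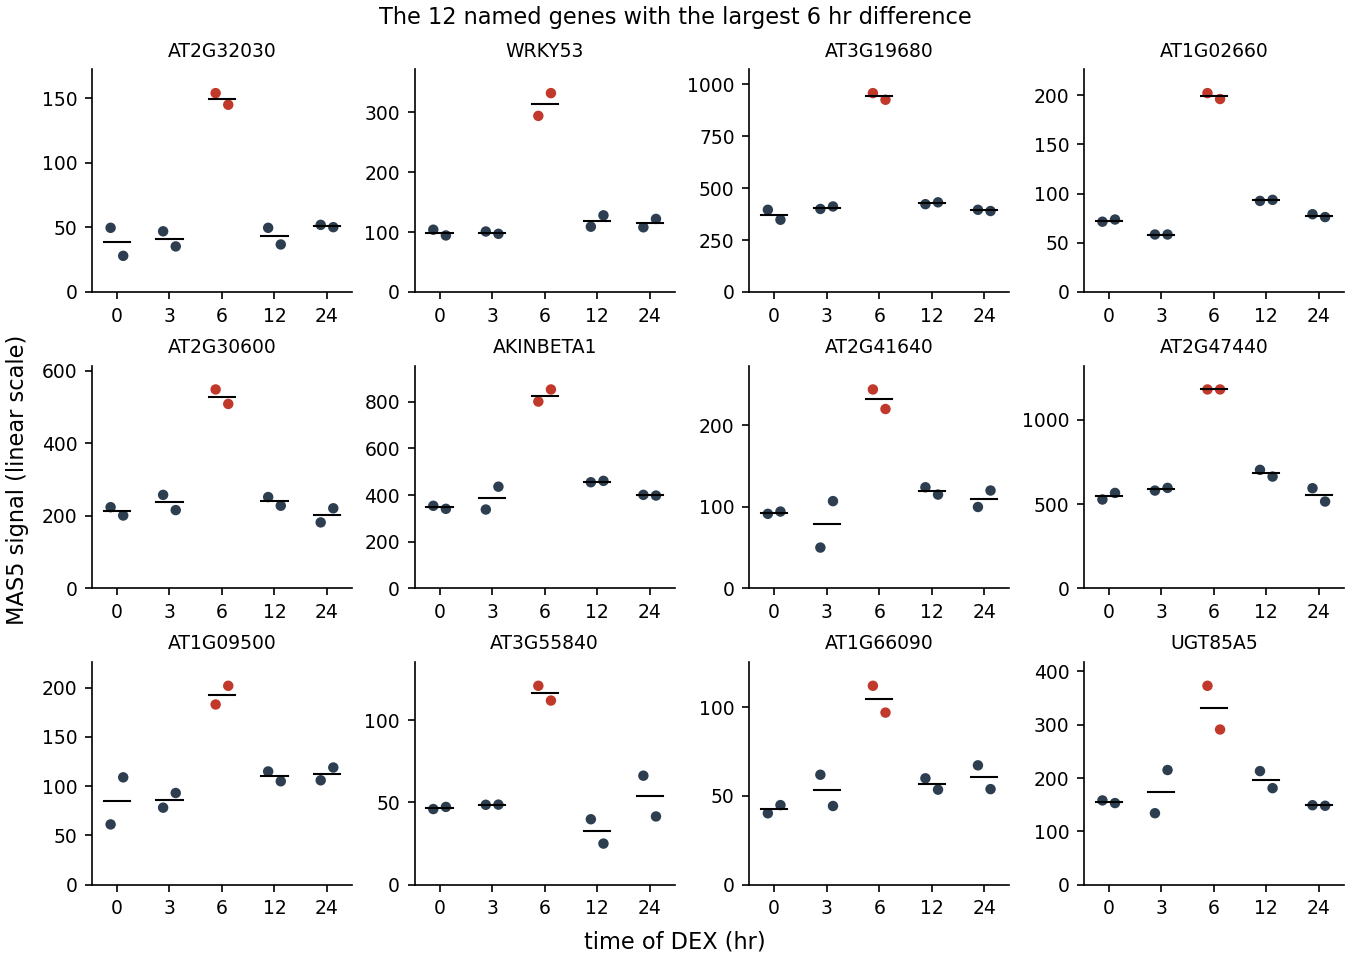
Each panel is 1 of the 12 named genes with the largest 6 hr difference, with the MAS5 signal of each array on a linear vertical axis from 0 and the time of DEX in hr on the horizontal axis. Bars are means of 2 arrays and the 6 hr arrays are red. In every panel both red points lie above all other arrays, as in 6.47% of all probe sets, which the limits of the rule nearly fix. The gap runs from 1.24 on the log2 scale in AT2G32030 to 0.41 in UGT85A5.

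The other named members have a less defined role. AT3G19680, which encodes a protein of unknown function, had 396 and 348 at 0 hr, 400 and 412 at 3 hr, 958 and 926 at 6 hr, 423 and 432 at 12 hr, and 396 and 390 at 24 hr, 2.53-fold with tight replicates. AT2G47440, a tetratricopeptide repeat protein gene, had 527 and 566 at 0 hr, 580 and 596 at 3 hr, 1180 on both 6 hr arrays, 703 and 663 at 12 hr, and 594 and 515 at 24 hr. In both genes the arrays of 0, 3 and 24 hr lay close together.

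AT2G30600, a BTB/POZ domain protein gene, was the only named member with a further probe set. The member probe set had 224 and 201 at 0 hr, 258 and 216 at 3 hr, 549 and 509 at 6 hr, 252 and 228 at 12 hr, and 182 and 221 at 24 hr, with log2 differences of 1.25 at 6 hr and 0.17 at 12 hr. The other probe set was brighter, with a mean of 1150 over the 10 arrays, with a 3 hr difference of 0.21, a 6 hr difference of 1.19, then 0.42 at 12 hr and 0.2 at 24 hr. It had nearly the same 6 hr difference on the same RNA and missed the set by its 12 hr level.

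AT5G43190, a gene of the F-box and Kelch-repeat type, had 280 and 386 at 0 hr, 434 and 336 at 3 hr, 689 and 641 at 6 hr, 391 and 488 at 12 hr, and 311 and 354 at 24 hr. AT1G18740, of the ROH1-like family, had 396 and 337 at 0 hr, 420 and 415 at 3 hr, 696 and 657 at 6 hr, 475 and 428 at 12 hr, and 386 and 520 at 24 hr. In AT5G43190 the range of the 3 hr arrays overlapped those of 0, 12 and 24 hr. In AT1G18740 all arrays of 3 and 12 hr lay above both 0 hr arrays, and the 24 hr arrays lay on either side of them. The 6 hr arrays stood clear of the others in both genes, which the rule nearly fixes.

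AT5G18130 had 366 and 354 at 0 hr, 386 and 389 at 3 hr, 679 and 763 at 6 hr, 415 and 442 at 12 hr, and 366 and 383 at 24 hr. AT4G37240 had 205 and 203 at 0 hr, 166 and 198 at 3 hr, 402 and 366 at 6 hr, 287 and 256 at 12 hr, and 232 and 245 at 24 hr. The latter kept a difference of 0.39 at 12 hr, as AT5G43190 did, which is just under the limit. A function of these 2 genes is not stated here.

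The 18 members without a gene name had 6 hr differences of 0.8 to 1.87 with a median of 0.97, close to the 1 of the named ones. Their mean signals at 0 hr ran from 56.6 to 1020. At 24 hr 11 of the 18 lay below 0 hr, against 4 of the 24 named ones, a contrast that rests on values used in the choice. The largest 6 hr difference of the whole set, 1.87, was that of the probe set 248622_at, with 340 and 339 at 0 hr, 381 and 347 at 3 hr, 1350 and 1220 at 6 hr, 405 and 400 at 12 hr, and 301 and 315 at 24 hr.

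Annotation and gene position were not used by the rule. A gene name was at hand for 57.1% of the members and for 59.4% of all tested probe sets. The 24 named genes lay on all 5 chromosomes. Chromosome 1 held 7 of them (29.2%, beside 25.5% of all named probe sets), chromosome 2 held 6 (25% beside 16.3%) and chromosome 3 held 4 (16.7% beside 20.3%). Chromosome 4 held 2 (8.33% beside 14.5%) and chromosome 5 held 5 (20.8% beside 22.3%). The shares on chromosomes 2 and 4 stood furthest from those of the array, on counts of 6 and 2 genes and with no test. Brightness was part of the rule, and among the 15662 probe sets that met its limit the mean signals of the 42 members ran from the 3.07 to the 89.3 percentile, with the median member at the 40.1 percentile.

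Of 10 genes listed for the SHR network 3 had a named probe set, and none of the 3 passed at 6 hr. SCL23 (AT5G41920), a GRAS-family relative of SCR, had a 6 hr difference of 0.32 (SE 0.14, adjusted p = 0.198 by limma), and JKD, a zinc-finger protein that binds SHR, one of 0.15 (SE 0.43, adjusted p = 0.877) at a signal near background. SLY2, an F-box gene of gibberellin signalling, stood at -0.01 (SE 0.23, adjusted p = 0.993). Of the 15 clock genes listed only GI had a named probe set, and it stood at 0.04 at 6 hr (SE 0.09, adjusted p = 0.819 by limma), so the part of time of day in the set was not tested.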

How the data were processed

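Each array's deposited file holds linear MAS5 signal intensities, 1 for every probe set. Per the submitters' processing notes, the authors used Affymetrix Expression Console 1.1. Background correction and scaling target are not given in the sources used here. Means that leave out the highest and lowest 2% of signals were 500 on all 10 arrays. RNA was labelled from 300 ng per sample, per the labels' protocols. From the 22810 probe sets 64 AFFX controls were set aside.

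Gene names came from the platform's probe table and the TAIR10.1 RefSeq table, for names and gene order only, with 13513 probe sets of 1 gene, 503 of several and 8730 not listed. Lists and families were matched to loci, symbols and synonyms. Promoter and protein sequences were not used here.

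On the log2(signal + 16) scale, which understates the change of dim probe sets, limma 3.58.1 (R 4.3.3) fitted 1 mean per time, with an intensity trend (5 residual and 5.86 prior degrees of freedom), two-sided. The fit was also run on data simulated from its own estimates of the spread, with no array effects, and nothing is read from that run. Adjusted p is Benjamini-Hochberg over 22746 probe sets. Exact tests of 2 against 2 arrays were not used. A SD covers 2 arrays, whose number limits precision. Named genes are all named members, the nearest named probe sets outside each limit, and from each list with a member up to 3 called genes of largest change, or 2 where none was called. Signals of all named members are given on every array, beyond the rule. UGT85A4, WRKY6, GI, SCL23, JKD, SLY2, the list members EFR, BIK1 and PUB24, the relatives of members, and both probe set IDs were added after their values were seen. The members and lists were chosen with earlier results of these data known.

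Same-numbered replicates of different times did not deviate together (correlations of -0.04 to 0.09 over 10 pairs of times), so the numbers were not taken as pairs. Alternatives were other offsets, scalings and filters, no intensity trend, a replicate block and leaving out each array.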

Additional observations from a re-analysis of the deposited data

How the results depend on the processing

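The rule gave 35 to 38 members with an offset of 1 or 64, quantile normalization or a common median, of which 25 to 34 were among the 42, and 37 to 53 members when 1 array was left out. Of the members found without 1 array, 25 to 39 were among the 42, with the fewest when 0 hr replicate 1 was left out. Of the 42, 12 met the rule in all 10 repeats without 1 array. Among the named members AT1G09500 and AT5G43190 met it least often, in 6 of the 10. Of the 42, 10 met the rule in every setting, including the named WRKY53, AT2G30600, AT2G47440, AT3G19680 and AT5G18130. The median 6 hr difference of the 42 was 0.99 to 1.05 without 1 array and 0.82 with an offset of 64, a lower value that a larger offset gives by construction. Without an intensity trend the calls over all probe sets against 0 hr numbered 937 (3 hr), 1216 (6 hr), 129 (12 hr) and 58 (24 hr), with 1099 for 6 against 3 hr and 177 for 12 against 6 hr, in place of 1870, 2129, 364, 218, 2080 and 543. Above the 30th percentile alone there were 556 at 12 hr and 391 at 24 hr. Leaving out 1 array gave 866 to 2035 (3 hr), 989 to 2297 (6 hr), 102 to 414 (12 hr), 70 to 192 (24 hr), 959 to 2245 for 6 against 3 hr and 146 to 591 for 12 against 6 hr, with the lone array assumed to vary like the other groups. The cause of these shifts was not tested. A common median made 63.1% of the 3 hr calls higher in place of 47.6%, and 41.5% of those of 6 against 3 hr in place of 56.4%. Listed genes outside the set called at 6 hr numbered 35 of 210, and 20 to 39 without 1 array. Of the 35, 26 were higher and 9 lower, where 5.17% of all probe sets were called higher and 4.19% lower. Without an intensity trend 4 UGT genes were called in place of 8. With a replicate block, 1934 probe sets were called at 6 hr and 37 listed genes, and no call count moved by over 1.5 times. Of single calls named in the text, the block ended those of PUB24 (6 against 3 hr, adjusted p = 0.0633), UGT73B1 (12 against 0 hr, 0.0584) and UGT76E12 (3 against 0 hr, 0.0603). An offset of 1 ended those of PUB24 (0.0597) and UGT76E12 (0.0512), an offset of 64 that of UGT73B1 (0.0545), and a common median or quantile normalization that of PUB24 (0.0592 and 0.0588). Without an intensity trend those of UGT73B1 at 12 hr (0.164), UGT76E12 at 3 hr (0.0857), BRH1 (0.0915), BIK1 (0.0698) and both falls to 12 hr were lost. The dim 0 hr signals of AT2G32030 and AT1G66090 limit the precision of their ratios.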
